A study of Homo sapiens with 3 samples.

Results

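The 49 genes described here are the ligands, receptors, antagonists and a few intracellular parts of WNT signalling, taken as every row of the count table whose symbol matched a fixed pattern, out of 32738 genes. They comprise 19 WNT ligands, 10 frizzled (FZD) receptors, 4 secreted frizzled-related proteins (SFRP), 4 Dickkopf proteins (DKK), 4 R-spondins (RSPO), 3 R-spondin receptors (LGR4, LGR5 and LGR6), the co-receptors LRP5 and LRP6, and AXIN2, LEF1 and TMEM88. The last group acts inside the cell or at the membrane and is neither ligand nor receptor. Each of the 49 genes had at least 1 unique molecular identifier (UMI, the tag that marks a single captured mRNA molecule) in the cells kept, but 8 of them had fewer than 30 over all days.

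Chambered cardiac organoids (CCOs) were made from H7, a human embryonic stem cell line, and dissociated for Chromium single-cell libraries (3' chemistry, version 2 of the kit) on days 8, 14 and 21 (D8, D14 and D21), each day giving a single library. All of these cells shared the same history, in which WNT signalling was driven with the GSK3 inhibitor CHIR99021 and then blocked with IWP-2, an inhibitor of WNT secretion, before aggregation in Matrigel. D8 cells had been in cardiosphere growth medium (CGM), which contains WNT3A and endothelin 1 protein, only since aggregation, D14 cells had been kept in it until then, and D21 cells had moved to RPMI/B27 in a spinner flask at D14. Day, library, culture step and medium can therefore not be told apart. Days could not be tested against each other, and the intervals given below cover counting error only.

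The study's limits on genes and mitochondrial RNA left 2657 D8 cells, 3585 D14 cells and 1946 D21 cells, with 30898727 to 50247286 UMIs per library and a median of 12282 to 15316 UMIs per cell. The libraries shared 25 to 59 barcode sequences between pairs. The limits kept 21.3% of the barcodes at D21, against 74.6% at D8 and 77.7% at D14, and the median mitochondrial share over all barcodes was 9.57% at D21 against 2.14% and 3.33%. Cells were clustered without the 49 genes, and clusters were named from marker lists. Cardiomyocyte-like (CM-like) cells numbered 482 at D8 (cluster 4), 1109 at D14 (mostly cluster 0) and 541 at D21 (clusters 0, 5 and 18). Of the 8 CM markers, 8 stood 2-fold above the other cells in clusters 0, 4 and 5, and 5 in cluster 18, whose leading genes were mostly noncoding. Endoderm-like cells numbered 256, 211 and 307, and those of D21, with SERPINA1, AMBP and APOA2 among their leading genes, were all in cluster 9. Cluster 9 had 8 of the 8 endoderm markers, cluster 12 (most of the D8 cells) 4 and cluster 14 (most of the D14 cells) 3, beside 8, 5 and 6 of 8 epithelial markers. Since EPCAM, an epithelial gene, but none of the 8 listed endoderm markers was among the 10 leading genes of cluster 14, although TTR and HHEX, also known in endoderm, were, endoderm-like values set side by side across days are to be read as those of clusters 12, 14 and 9. Ectoderm-like cells (cluster 11, with 5 of 8 ectoderm and 4 of 8 epithelial markers, and with the pluripotency gene POU5F1 beside SOX2 and TFAP2A among its leading genes) numbered 205 and 78 at D8 and D14, endothelial-like cells 48, 53 and 37, dividing-like cells 353, 464 and 154, and fibroblast-like cells (cluster 3) 844 at D21. Most clusters came from a single library, so that a cluster's genes may reflect its library. The clusters that received no name are given by number and leading genes. Group sizes moved with the settings. D8 CM-like cells numbered 1008 with over 1000 genes per cell, 896 without the highest doublet scores, 849 with 3000 variable genes and 432 to 472 otherwise. D14 fibroblast-like cells, 7 here, numbered 549 with over 1000 genes per cell and 546 with a mitochondrial limit of 20%. They numbered 514 with 3000 variable genes, 325 with all variable genes kept and 1 to 7 otherwise.

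WNT ligands are lipid-modified secreted proteins that bind a frizzled receptor together with LRP5 or LRP6, which stops the breakdown of beta-catenin and lets it act with LEF1 and related factors on target genes such as AXIN2. SFRP proteins bind WNT ligands outside the cell, DKK1 blocks LRP5 and LRP6, and R-spondins act through LGR4, LGR5 and LGR6 to keep frizzled receptors on the surface. In heart formation, WNT signalling is needed for mesoderm and must then be held down for cardiac specification, and ligands such as WNT5A and WNT11 are known for a branch that does not depend on beta-catenin.

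To place members in their genomic setting, the 250 bases before the start of the gene were read from RefSeq for DKK1 and LEF1, both known as beta-catenin targets. The study's counts were made on hg19, and these coordinates are those of GRCh38.p14. The pair was picked after 6 motifs had been searched on both strands, and are shown because DKK1 was the only member with a match to any of the 3 core letter strings read by LEF1 and its relatives, whereas LEF1 had no match to any of the 6. Capitals mark the matches. DKK1 lies on the plus strand of chromosome 10 (chr10:52314031-52314280) and LEF1 on the minus strand of chromosome 4 (chr4:108166302-108166551).
DKK1: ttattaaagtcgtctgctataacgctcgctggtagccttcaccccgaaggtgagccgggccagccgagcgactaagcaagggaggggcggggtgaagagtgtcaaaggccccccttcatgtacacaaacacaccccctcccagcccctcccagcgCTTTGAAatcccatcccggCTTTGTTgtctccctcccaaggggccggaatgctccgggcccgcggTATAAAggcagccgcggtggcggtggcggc
LEF1: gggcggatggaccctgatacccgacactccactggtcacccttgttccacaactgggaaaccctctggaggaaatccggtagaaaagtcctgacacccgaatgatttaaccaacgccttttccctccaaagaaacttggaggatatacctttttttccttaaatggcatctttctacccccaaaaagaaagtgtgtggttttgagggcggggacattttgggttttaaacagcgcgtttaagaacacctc
In DKK1, CTTTGAA started 95 bases before the gene's start, CTTTGTT 76 bases before it and TATAAA 30 bases before it. Entries were found for 32 of the 49 members, with 37 promoters, against 35116 promoters in all. CTTTGAA was in 1 of the 37 and in 3.8% of all, CTTTGTT in 1 and in 4.5%, CTTTGAT in 0 and in 2.26%, and TATAAA in 3 (DKK1, FZD8 and WNT5B) and in 10.7%. GATAAG was in 1 (LGR6) and in 5.65% of all, and CACGTG in 1 (RSPO4) and in 6.34%. These are letter matches, and no binding was measured. In the order of genes along RefSeq chromosomes, WNT6 and WNT10A, WNT10B and WNT1, and WNT3 and WNT9B stand next to each other.

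The summed level of the 19 WNT ligands, in counts per 1000000 UMIs (CPM, given with its exact Poisson 95% interval in brackets), was highest at D14, where it was 108 CPM (105 to 111) over all kept cells, against 40.5 CPM (38.7 to 42.4) at D8 and 40.8 CPM (38.6 to 43.1) at D21. The highest level on each day was that of the CM-like cells, whose ligand sum was 82.5 CPM (76.3 to 89.1) at D8, 202 CPM (195 to 209) at D14 and 77.6 CPM (71.4 to 84.3) at D21. WNT5A gave the most ligand UMIs there at D8 and D14, and WNT5B at D21. At D14 the next group was the ectoderm-like cells with 124 CPM (108 to 141), and endothelial-like cells had 15.6 CPM (7.47 to 28.6), from 10 UMIs. Levels over all kept cells can also move with the share of each cell group in the library, so each gene is given within groups as well.

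**Figure D1:**
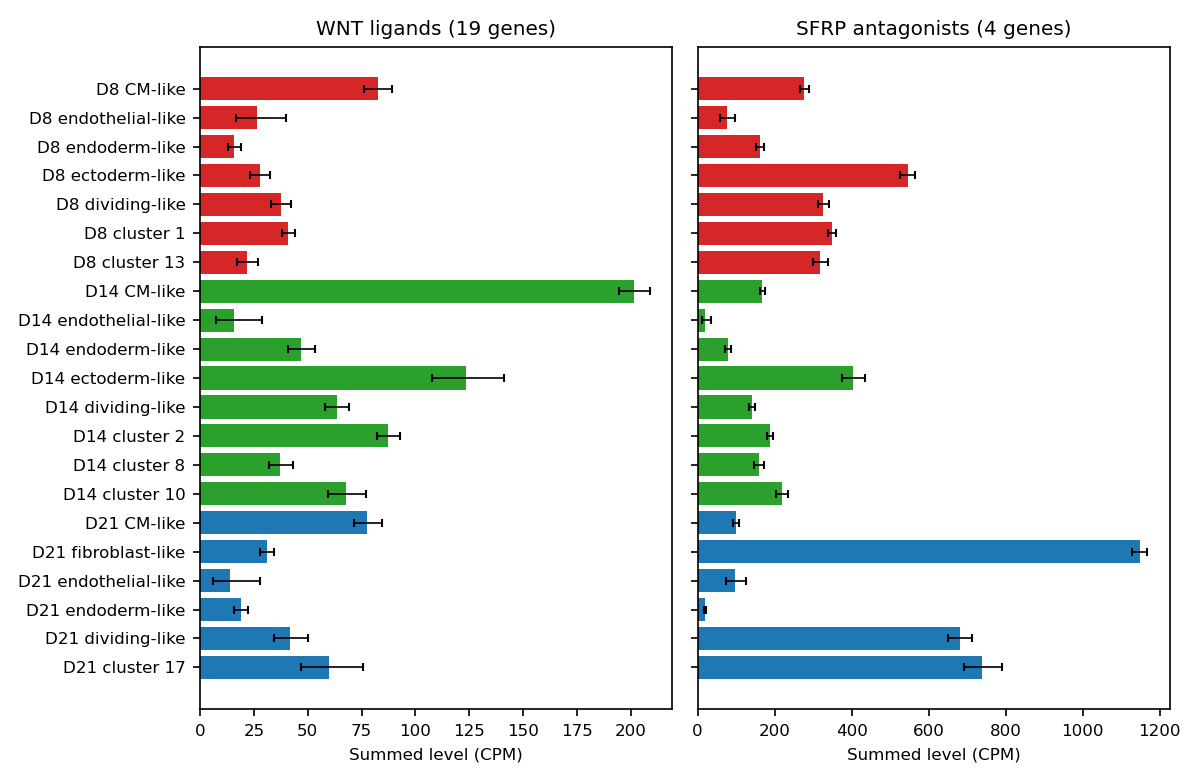
Summed level (CPM, linear axis from 0) of the 19 WNT ligands (left) and the 4 SFRP antagonists (right) in each library's cell groups of 30 or more cells, with exact Poisson 95% intervals as error bars and bars coloured by day (D8 red, D14 green, D21 blue). The longest ligand bar is that of CM-like cells at D14 (202 CPM) and the longest SFRP bar that of fibroblast-like cells at D21 (1149 CPM).

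WNT2, a ligand of lung and second heart field mesoderm, was at 0.663 CPM (0.45 to 0.941) on D8, 10.0 CPM (9.17 to 10.9) on D14 and 5.95 CPM (5.13 to 6.88) on D21 over all kept cells. It was low at D8, highest at D14 and between these at D21, with no overlap of the counting intervals. Within CM-like cells it was at 1.91 CPM (1.07 to 3.16) on D8, 30.8 CPM (28 to 33.7) on D14 and 18.5 CPM (15.5 to 21.9) on D21, a level 16.1-fold (9.65 to 29) higher at D14 than at D8. Of the WNT2 UMIs of D14, 91.3% were in CM-like cells, where the level was 24.7-fold (18.1 to 34.4) above that of the other cells of the day, and at D21 it was 8.9-fold (6.37 to 12.6) above. After each cell was thinned to 4000 UMIs, 8.75% (7.15% to 10.6%) of the D14 CM-like cells had a WNT2 UMI, against 1.9% (0.519% to 4.78%) of the endoderm-like cells, at median depths before thinning of 12282 and 20864 UMIs. The share in endoderm-like cells is given here and below as a measure of what free RNA in droplets and any expression there give together. It holds for those deeper cells only. No share from empty droplets was measured, so the part of free RNA in the other groups is not known and may be larger.

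WNT5A, which signals mainly without beta-catenin, was at 22.2 CPM (20.9 to 23.6) on D8, 52.2 CPM (50.2 to 54.3) on D14 and 18.6 CPM (17.1 to 20.2) on D21. The D14 level was 2.35-fold (2.19 to 2.53) that of D8 and 2.81-fold (2.56 to 3.08) that of D21. In CM-like cells the gene was at 60.3 CPM (55 to 66) on D8, 99.2 CPM (94.3 to 104) on D14 and 25.9 CPM (22.3 to 29.8) on D21, and so was already 4.16-fold (3.67 to 4.7) above the other cells at D8. The D14 cells of cluster 2, led by MFAP4 and HAND1, were at 50.3 CPM (46.3 to 54.6), and fibroblast-like cells of D21 at 16.4 CPM (14.1 to 18.9).

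WNT5B, its close relative, was at 6.24 CPM (5.55 to 7) on D8, 27.1 CPM (25.7 to 28.6) on D14 and 8.29 CPM (7.3 to 9.36) on D21. Its CM-like levels were 9.56 CPM (7.52 to 12) on D8, 48.2 CPM (44.8 to 51.9) on D14 and 26.7 CPM (23.1 to 30.7) on D21. At D14 it was also found in cluster 10, led by EBF2 and SST, at 33.8 CPM (28 to 40.5), whereas at D21 CM-like cells held 76.2% of its UMIs and stood 10.3-fold (7.71 to 14) above the other cells. WNT2, WNT5A and WNT5B thus shared their highest group at D14 and D21 among groups of 30 or more cells, the CM-like cells, although for WNT5A at D21 cluster 17 was close to it, at 24.3 CPM (16.2 to 35.1).

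WNT6, a ligand of surface ectoderm, had another location. Its level was 0.62 CPM (0.415 to 0.891) on D8, 2.71 CPM (2.27 to 3.2) on D14 and 0.0324 CPM (0.000819 to 0.18) on D21 over all kept cells, and the last value rests on 1 UMI. In ectoderm-like cells it was at 4.3 CPM (2.69 to 6.51) on D8 and 67 CPM (55.4 to 80.3) on D14, which is 15.6-fold (9.83 to 25.8) higher at D14. These 78 cells held 86% of the D14 UMIs, and the 1109 CM-like cells of D14 had 0, which allows a level of up to 0.201 CPM. No D21 cell was ectoderm-like, and between D14 and D21 WNT6 differed by 83.6-fold (14.8 to 3327) over all kept cells, a ratio that rests on 136 UMIs against 1.

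Among ligands outside the naming rule, WNT11, singled out after its values were seen because it is known in heart formation, was at 1.28 CPM (0.612 to 2.35) on D8, 13.6 CPM (11.8 to 15.6) on D14 and 2.87 CPM (1.78 to 4.39) on D21 in CM-like cells. WNT3A, the ligand supplied as protein in CGM, had 28 D8 UMIs, 10 D14 UMIs and 0 D21 UMIs. Of the first, 23 were in ectoderm-like cells. Its transcript at D21 was not detectable above 0.0971 CPM, the limit of 3 counts in that library.

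RSPO3, the R-spondin with the most UMIs here and a known regulator of vessel and heart growth, had its highest level in other cells at D21 than at D14. Over all kept cells it was at 5.09 CPM (4.46 to 5.78) on D8, 23.1 CPM (21.8 to 24.5) on D14 and 21.1 CPM (19.5 to 22.8) on D21, so that D14 and D21 were close. At D14, CM-like cells had 49.8 CPM (46.3 to 53.5) and 64.2% of its UMIs. At D21, the fibroblast-like cells had 43.5 CPM (39.8 to 47.5) and 77%, while CM-like cells were at 5.34 CPM (3.8 to 7.3), 9.33-fold (6.76 to 13.2) below their D14 level. Under the alternatives this log2 ratio of -3.22 lay between -3.71 and -1.16, the last with the gate on CM genes. In D8 CM-like cells it was at 6.12 CPM (4.51 to 8.12). The levels of the whole libraries were thus close while those of the cell groups were not.

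**Figure D2:**
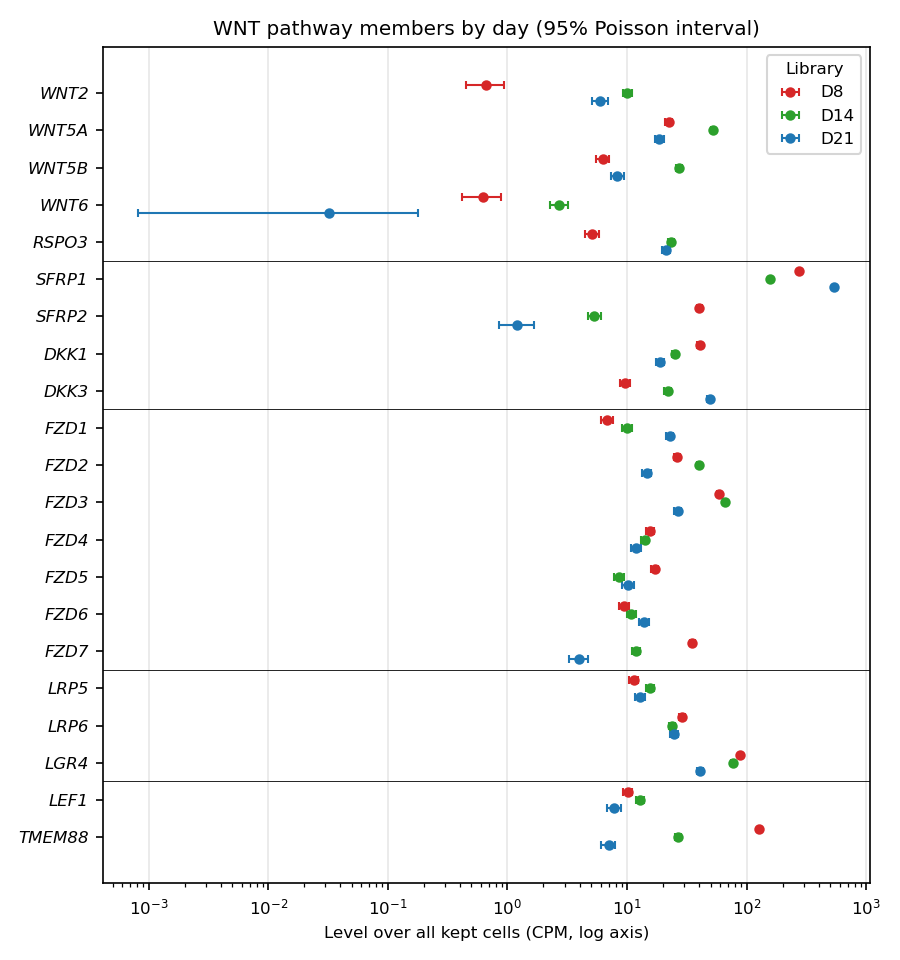
Level over all kept cells (CPM, log axis) of the 21 members given with values, in the D8 (red), D14 (green) and D21 (blue) libraries, with exact Poisson 95% intervals. Lines part ligands and RSPO3, SFRP and DKK antagonists, frizzled receptors, LRP5, LRP6 and LGR4, and LEF1 and TMEM88. WNT2, WNT5A and WNT5B peak at D14, TMEM88, SFRP2 and FZD7 step down from D8 to D21, and DKK3 and FZD1 step up.

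SFRP1, a secreted antagonist that binds WNT ligands, was at 276 CPM (271 to 281) on D8, 156 CPM (153 to 159.9) on D14 and 536 CPM (527 to 544) on D21. The D21 level was 3.42-fold (3.33 to 3.52) higher than that of D14, and this log2 ratio of 1.78 was 2.51 with a mitochondrial limit of 5% and 1.2 with one of 20%. The fibroblast-like cells were at 1129.7 CPM (1110.3 to 1149) and held 78.7% of the day's SFRP1 UMIs. After thinning, 85.4% (82.9% to 87.7%) of them had a SFRP1 UMI. Endoderm-like cells of the same library were at 13.1 CPM (10.7 to 16), with a share of 2.93% (1.35% to 5.49%), at median depths of 21922 UMIs against 12758. SFRP1 was itself a leading gene of the fibroblast-like cluster, so its level there is a description of the cluster, although the gene was left out of the clustering.

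CM-like cells were at 267 CPM (256 to 279) on D8, 158 CPM (152 to 165) on D14 and 94.7 CPM (87.8 to 102) on D21, so their SFRP1 was lower at D21 than at D8 by 2.82-fold (2.59 to 3.08) while the library as a whole was higher. At D8 the gene was found in most groups, with 339 CPM (329.6 to 348) in cluster 1 (led by EBF2 and HAND1), 319 CPM (306 to 332) in dividing-like cells and 74.1 CPM (56.8 to 95) in endothelial-like cells. The dividing-like cells of D21 were at 668 CPM (638 to 699.7). Cluster 17 of D21, with MYL2, ANK2, LDB3, MYH7B, MB and MYH6 among its leading genes, was at 726 CPM (678 to 777). In it 0 of the 8 CM markers and 1 of the 8 fibroblast markers stood 2-fold above the other cells, and its median doublet score of 0.1865 was above that of every other cluster. Its 58 cells are among the other cells to which D21 CM-like cells are compared. The part of doublets in the SFRP1 level of cluster 17 was not tested.

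SFRP2 had 91.2% of its D8 UMIs in ectoderm-like cells, where its level was 335 CPM (319 to 351) on D8 and 88.8 CPM (75.4 to 104) on D14. The study used SFRP2 and other genes of early mesoderm to name a cardiac mesodermal cluster of D8 and D14. Whether its cells are those called ectoderm-like here was not tested. CM-like cells had 0.638 CPM at D8, 5.48 CPM at D14 and 0 UMIs at D21. The D14 value rests on few cells, as 0.361% (0.0984% to 0.921%) of the CM-like cells had a SFRP2 UMI after thinning, against 0.474% (0.012% to 2.61%) of the endoderm-like cells, a share that is no lower, so that no expression in CM-like cells was read from it.

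DKK1, which blocks LRP5 and LRP6 and is itself a target of beta-catenin, was at 40.3 CPM (38.5 to 42.2) on D8, 25 CPM (23.6 to 26.4) on D14 and 18.8 CPM (17.3 to 20.4) on D21. On each day its level was highest in endoderm-like cells among groups of 30 or more cells, at 101 CPM (93.8 to 109) on D8, 147 CPM (136 to 158) on D14 and 47.8 CPM (43 to 53) on D21. They held 35.7% of the D8 DKK1 UMIs, 56.9% of those of D14 and 61.9% of those of D21. In CM-like cells it was at 30.5 CPM (26.7 to 34.6) on D8, 2.88 CPM (2.08 to 3.87) on D14 and 3.83 CPM (2.55 to 5.54) on D21, 10.6-fold (7.63 to 15) lower at D14 than at D8. DKK1 was also counted in the unnamed clusters with EBF2 among their leading genes, with 45.2 CPM (42 to 48.7) in cluster 1 at D8 and 45.8 CPM (39 to 53.4) in cluster 10 at D14.

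DKK3, a Dickkopf relative that does not bind LRP5 or LRP6 in the manner of DKK1, was lowest at D8 and highest at D21, with 9.6 CPM (8.73 to 10.5) on D8, 21.8 CPM (20.5 to 23.1) on D14 and 49.2 CPM (46.7 to 51.7) on D21. CM-like cells held 58.5% of its UMIs at D14 and 64.1% at D21, and were at 11.1 CPM (8.89 to 13.7) on D8, 42.8 CPM (39.5 to 46.3) on D14 and 133 CPM (125 to 142) on D21, 3.86-fold (3.08 to 4.88) and then 3.11-fold (2.81 to 3.44) higher. At D21, 39.7% (35.6% to 44%) of the CM-like cells had a DKK3 UMI after thinning, against 3.26% (1.57% to 5.91%) of the endoderm-like cells, at median depths of 12773 and 21922 UMIs. Between D8 and D14, DKK1 and DKK3 thus differed in opposite directions in CM-like cells, while from D14 to D21 the DKK1 intervals overlapped.

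**Figure D3:**
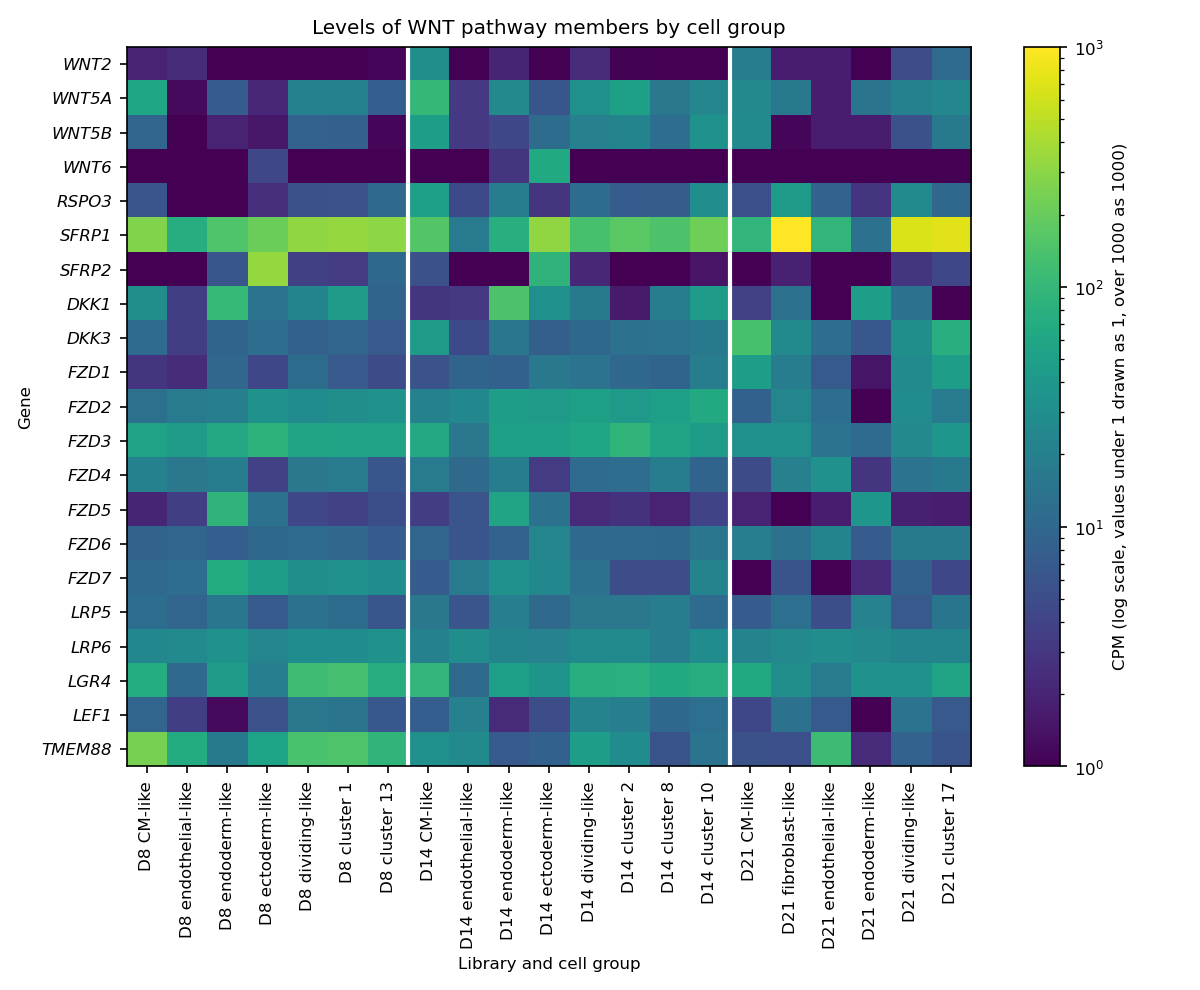
Level (CPM, colour on a log scale, values under 1 drawn as 1 and over 1000 as 1000) of the 21 members given with values (rows) in each library's cell groups of 30 or more cells (columns, white lines between D8, D14 and D21). SFRP1 is brightest in fibroblast-like cells of D21, WNT6 and SFRP2 in ectoderm-like cells, FZD5 and DKK1 in endoderm-like cells, and WNT2 in CM-like cells of D14.

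The frizzled receptors, the membrane proteins that bind WNT ligands, differed in where they were found. FZD5 was highest in endoderm-like cells, at 90.2 CPM (83.1 to 97.7) on D8, 56.8 CPM (50.3 to 63.9) on D14 and 38 CPM (33.7 to 42.6) on D21, which is 18.5-fold (15.7 to 21.8), 16.9-fold (13.8 to 20.7) and 30.6-fold (20.9 to 46.5) above the other cells of the day. CM-like cells had 2.04 CPM, 3.48 CPM and 1.92 CPM on these days. Over all kept cells FZD5 was at 17 CPM (15.8 to 18.2) on D8, 8.54 CPM (7.75 to 9.39) on D14 and 10.2 CPM (9.1 to 11.4) on D21.

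FZD7, a receptor known from pluripotent and mesendoderm cells, was highest at D8 and lowest at D21, with 35 CPM (33.4 to 36.8) on D8, 11.9 CPM (11 to 12.9) on D14 and 3.95 CPM (3.28 to 4.71) on D21. The same order was seen in endoderm-like cells, at 69.9 CPM (63.7 to 76.5) on D8, 32.7 CPM (27.8 to 38.2) on D14 and 2.26 CPM (1.32 to 3.61) on D21, and in the CM-like cells, at 10.6 CPM (8.43 to 13.1) on D8, 7.56 CPM (6.23 to 9.09) on D14 and 0.958 CPM (0.385 to 1.97) on D21. FZD1 had the opposite order, with 6.8 CPM (6.07 to 7.59) on D8, 9.97 CPM (9.12 to 10.9) on D14 and 22.7 CPM (21 to 24.4) on D21, and in CM-like cells it was at 2.81 CPM (1.76 to 4.25) on D8, 5.82 CPM (4.66 to 7.18) on D14 and 47.1 CPM (42.2 to 52.3) on D21, which is 8.09-fold (6.38 to 10.4) higher at D21 than at D14. With a mitochondrial limit of 5%, which left 37 CM-like cells of D21, the log2 ratio of FZD1 was 1.49 rather than 3.02. Endoderm-like cells had less FZD1 at D21 than at D14, at 1.46 CPM against 8.44 CPM. In CM-like cells, FZD1 was thus at its highest in the library in which FZD7 was at its lowest.

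FZD2 and FZD3 were found in most groups at D8 and D14. FZD2 was at 26 CPM (24.5 to 27.5) on D8, 39.8 CPM (38.1 to 41.6) on D14 and 14.6 CPM (13.2 to 16) on D21 and FZD3 at 58.8 CPM (56.6 to 61) on D8, 65.4 CPM (63.1 to 67.6) on D14 and 26.4 CPM (24.7 to 28.3) on D21, both lower at D21. In endoderm-like cells FZD2 had 228 UMIs at D14 and 6 at D21, a level of 46.9 CPM (41 to 53.4) against 0.797 CPM (0.292 to 1.73), although the D14 and D21 cells of that name lay in different clusters. FZD4, an endothelial receptor for norrin as well as WNT ligands, was at 15.6 CPM (14.5 to 16.8) on D8, 14 CPM (13 to 15.1) on D14 and 11.9 CPM (10.7 to 13.2) on D21, and by D21 its highest level was in endothelial-like cells, at 33.4 CPM (20.1 to 52.1), against 4.79 CPM (3.34 to 6.66) in CM-like cells. FZD6 was at 9.47 CPM (8.61 to 10.4) on D8, 10.8 CPM (9.92 to 11.8) on D14 and 13.9 CPM (12.6 to 15.2) on D21, and in CM-like cells at 9.05 CPM (7.07 to 11.4) on D8, 9.56 CPM (8.06 to 11.3) on D14 and 19.2 CPM (16.1 to 22.6) on D21.

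The co-receptors stayed within 2-fold between libraries over all kept cells. LRP5 was at 11.4 CPM (10.5 to 12.4) on D8, 15.6 CPM (14.5 to 16.7) on D14 and 12.9 CPM (11.6 to 14.2) on D21 and LRP6 at 28.7 CPM (27.2 to 30.3) on D8, 23.8 CPM (22.4 to 25.1) on D14 and 24.6 CPM (22.9 to 26.4) on D21. LRP6 lay between 18.2 CPM (cluster 8 of D14, led by MGP) and 34.8 CPM (cluster 13 of D8, led by NMB and IL11) over all groups of 30 or more cells. LRP5 in CM-like cells in the D14 library was at 15.9 CPM, against 7.53 CPM in that of D21, while endoderm-like cells of D21 had 21.4 CPM. LGR4, the R-spondin receptor found in most groups, was at 88.2 CPM (85.5 to 90.9) on D8, 76.8 CPM (74.4 to 79.3) on D14 and 40.7 CPM (38.5 to 43) on D21, with 132 CPM in cluster 1 of D8 and 10.8 CPM in the endothelial-like cells of that day. LGR5, a stem cell marker of the gut outside the naming rule and singled out after its values were seen, had 74 UMIs at D21, of which 66 were in endoderm-like cells.

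TMEM88, a membrane protein that holds down beta-catenin signalling during cardiac specification, showed the largest ratio between D8 and D21, in either direction, among members with 100 UMIs or more at both. It was at 128 CPM (124 to 131) on D8, 26.5 CPM (25.1 to 28) on D14 and 6.99 CPM (6.09 to 7.99) on D21, and in CM-like cells at 239.7 CPM (229 to 251) on D8, 31.6 CPM (28.8 to 34.6) on D14 and 5.61 CPM (4.03 to 7.61) on D21, 7.58-fold (6.85 to 8.4) lower at D14 and a further 5.64-fold (4.09 to 7.96) lower at D21. Of the D8 CM-like cells, 45.6% (41.1% to 50.2%) had a TMEM88 UMI after thinning, against 4.69% (2.45% to 8.04%) of the endoderm-like cells, at median depths of 14440.5 and 23629.5 UMIs. In endothelial-like cells the order was another, with 70.5 CPM (53.7 to 90.9) on D8, 26.5 CPM (15.4 to 42.4) on D14 and 112 CPM (86.6 to 144) on D21, from 59, 17 and 64 UMIs in 48, 53 and 37 cells. At D21 it was 22.4-fold (16.5 to 30.2) above the other cells of the day.

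LEF1, the nuclear partner of beta-catenin and itself a target, was at 10.1 CPM (9.2 to 11) on D8, 12.8 CPM (11.8 to 13.8) on D14 and 7.77 CPM (6.82 to 8.81) on D21, and in CM-like cells at 9.56 CPM (7.52 to 12) on D8, 7.82 CPM (6.47 to 9.38) on D14 and 4.38 CPM (3 to 6.18) on D21. Its highest levels at D14 were in dividing-like cells, at 21.7 CPM (18.6 to 25.2), in endothelial-like cells, at 20.2 CPM (10.8 to 34.6), and in cluster 2, at 19.2 CPM (16.8 to 21.9), and endoderm-like cells were lowest on each day among groups of 30 or more cells. AXIN2, the target most often read as a sign of beta-catenin activity, fell outside the naming rule and was singled out after its values were seen. It was at 3.91 CPM (3.37 to 4.52) on D8, 4.58 CPM (4 to 5.21) on D14 and 2.88 CPM (2.31 to 3.54) on D21 over all kept cells and at 3.83 CPM (2.58 to 5.46) on D8, 5.22 CPM (4.12 to 6.51) on D14 and 5.34 CPM (3.8 to 7.3) on D21 in CM-like cells, whose intervals overlap. AXIN2 was not past 2-fold between days in CM-like cells. No smaller difference was read from these intervals, which rest on 30 to 78 UMIs.

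A member was counted as higher or lower when its level differed by 2-fold or more and at least 30 UMIs were counted over both sides. From D8 to D14, over all kept cells, 39 of the 49 could be compared, and 13 were higher (13.1% of all genes compared) and 5 lower (4.3%). The higher ones included 8 WNT ligands (WNT2, WNT4, WNT5A, WNT5B, WNT6, WNT9A, WNT11 and WNT16), RSPO1 and RSPO3. Ligands are 19 of all 49 members before the UMI minimum, and the count of 8 was not tested or read as a result about ligands. Some calls rest on few UMIs at D8 and D14, with 7 and 34 for WNT16 and 11 and 75 for WNT4. RSPO1 had 15 and 58, and WNT9A 23 and 50. From D14 to D21, 36 could be compared, and 5 were higher (8.18% of all genes) and 14 lower (19.1%). With TMM scaling 10.5% of all genes were higher and 14.3% lower, and the member counts were 5 and 12. From D8 to D21, 34 could be compared, with 10 higher (14.8%) and 9 lower (18.7%). The members' median log2 ratio was 0.40 from D8 to D14 against 0.12 over all genes compared, and -0.63 against -0.28 from D14 to D21. In each of these steps the share of members past the limit was above that of all genes in both directions, and no test of the members as a set was made.

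Within CM-like cells, 28 members could be compared in each step. From D8 to D14, 9 were higher (14.0% of all genes), namely WNT2, WNT5B, WNT11, RSPO3, SFRP2, DKK3, FZD1, FZD8 and FZD9, and 3 lower (3.1%), namely DKK1, SFRP5 and TMEM88. From D14 to D21, 3 were higher (5.36%), namely DKK3, FZD1 and FZD6, and 12 were lower (21.1%, or 16.9% and 10 members with TMM scaling, beside 7.67% and 3 members higher), among them RSPO3, FZD7, TMEM88, WNT5A, FZD4 and FZD2. Without cluster 18, an alternative added after the data were seen, 2 were higher and 14 lower. FZD6 (2-fold), FZD3 (2.01-fold) and LRP5 (2.11-fold) lay just past the limit, as did FZD1 from D8 to D14 (2.07-fold (1.29 to 3.48)), which stayed past it in 3 of 12 alternatives. With a gate on CM genes in place of clusters, 6 were higher from D14 to D21 (8.0% of all genes), but of the 1165 D21 cells in the gate 541 were CM-like. The members' medians were 0.40 and -0.85 on the log2 scale, beside 0.11 and -0.25 over all genes.

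**Figure D4:**
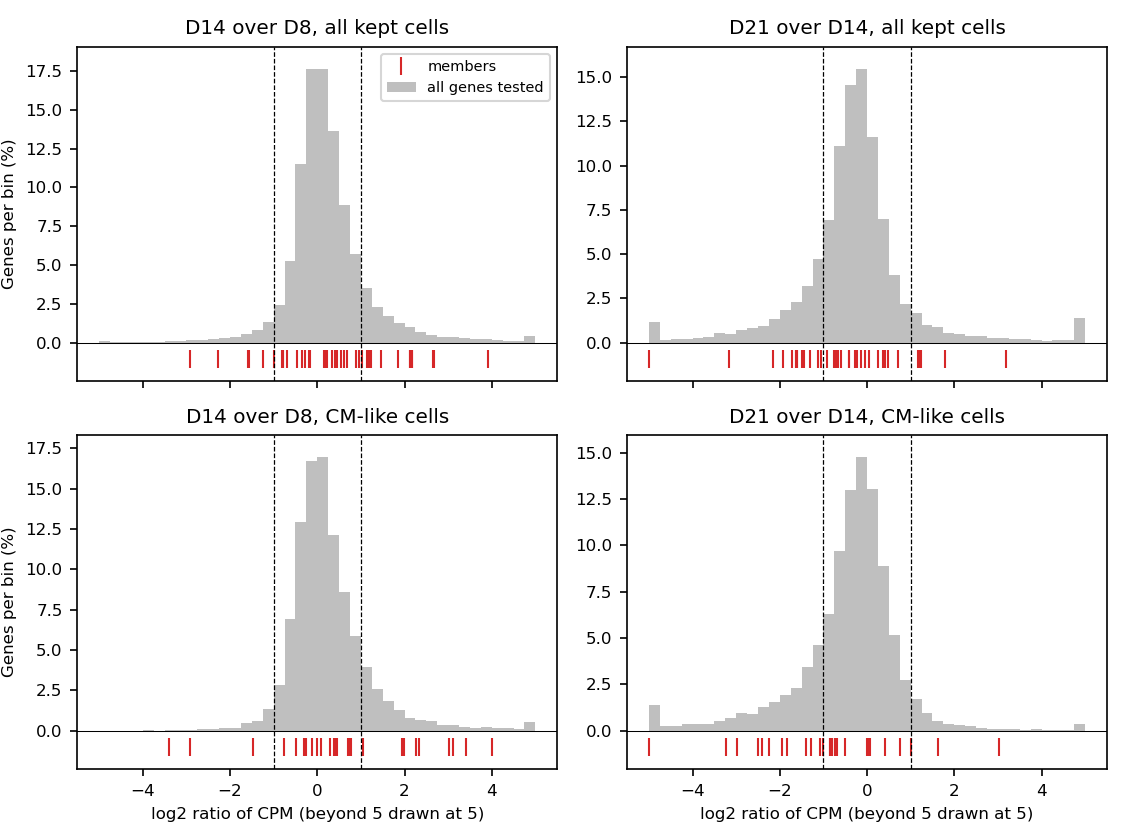
Distribution of log2 ratios of CPM over all genes compared (grey bars, percent of genes per bin of 0.25) and the ratio of each member compared (red ticks), for D14 over D8 and D21 over D14, over all kept cells (top) and CM-like cells (bottom), with dashed lines at 2-fold either way. Member ticks lie on both sides of the dashed lines in each panel, and ratios past 5 are drawn at 5.

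At D14, 34 members could be compared between a cell group and the other cells of the day. In CM-like cells 7 were 2-fold or more higher (9.84% of all genes), namely WNT2, WNT5A, WNT5B, WNT11, RSPO3, DKK3 and FZD8. In endoderm-like cells 4 were (6.55%), namely FZD5, FZD7, DKK1 and WNT16, and in ectoderm-like cells 8 (5.2%), namely WNT3, WNT4, WNT6, RSPO1, SFRP1, SFRP2, FZD6 and FZD7. Endothelial-like cells had 1, FZD9 (8.78%), and dividing-like cells 2, LGR5 and TMEM88 (4.99%). The 53 endothelial-like cells held 64 frizzled UMIs, of which the leading gene, FZD2, gave 25%, so the FZD9 call rests on few UMIs there. The 78 ectoderm-like cells held 12 R-spondin UMIs, of which RSPO1 gave 50%. WNT16 had 34 UMIs over all kept cells of D14. Those 2 calls thus rest on few UMIs as well. Ligands made up 4 of the 7 members in CM-like cells and 3 of the 8 in ectoderm-like cells, beside 19 of all 49 members before the UMI minimum. Neither count was tested or is read as a result about ligands.

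At D21, 31 members could be compared between a cell group and the other cells of that day. In fibroblast-like cells 13 were 2-fold or more higher (11.3% of all genes), namely SFRP1, SFRP2, SFRP5, DKK2, RSPO3, RSPO4, WNT11, WNT16, FZD2, FZD4, FZD7, FZD9 and LEF1. In CM-like cells 7 were higher (12.1%), namely WNT2, WNT5B, DKK3, FZD1, FZD8, LGR4 and AXIN2. In endoderm-like cells 4 were higher (10.7%), namely FZD5, DKK1, LRP5 and LGR5, and 22 were 2-fold or more lower (34.9%). In endothelial-like cells 4 were higher (11.2%), namely TMEM88, FZD4, FZD9 and WNT2B. Dividing-like cells had 4 (7.11%), namely FZD2, FZD7, SFRP2 and WNT3. The 37 endothelial-like cells held 8 ligand UMIs, of which WNT2B gave 50%, so the WNT2B call rests on few UMIs there. SFRP2 and WNT3 had 37 and 31 UMIs over all kept cells of D21. With a mitochondrial limit of 5% in place of 10%, 37 CM-like and 40 endoderm-like cells remained at D21, the fibroblast-like count was 2 and the endoderm-like count 2. These lists describe clusters and were not tested.

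In endoderm-like cells, 22 members could be compared from D8 (cluster 12) to D14 (cluster 14), of which 6 were higher (7.08% of all genes), namely WNT5A, WNT5B, RSPO3, FZD2, FZD8 and AXIN2, and 4 lower (4.57%), namely FZD7, SFRP2, SFRP5 and TMEM88. WNT5A was at 7.38 CPM (5.46 to 9.76) on D8, 25.9 CPM (21.6 to 30.9) on D14 and 14.3 CPM (11.8 to 17.3) on D21 in these cells. Between D14 and D21 (cluster 9), 20 could be compared, and SFRP5 and LGR5 were higher (12.0% of all genes) while 12 were lower (29.7%), 6 of them frizzled receptors (FZD1, FZD2, FZD3, FZD4, FZD7 and FZD8). The largest of these ratios was that of FZD2, 58.9-fold (26.7 to 162). That of FZD1 rests on 41 UMIs at D14 and 11 at D21. Frizzled receptors are 10 of all 49 members before the UMI minimum. The count of 6 was not tested or read as a result about receptors. In ectoderm-like cells, 18 could be compared between D8 and D14, and 6 were higher (8.03%), namely WNT3, WNT4, WNT6, FZD1, FZD6 and DKK1, and 2 lower (10.7%), SFRP2 and TMEM88. For DKK1 in those cells the CPM and the share of thinned cells had opposite orders, with 3.9% (1.7% to 7.54%) at D8 and 1.28% (0.0325% to 6.94%) at D14, so no order was read from it.

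In dividing-like cells, which by D21 lay mostly in a cluster of their own, 26 members could be compared from D8 to D14, and 4 were higher (9.06%), namely RSPO3, RSPO4, WNT5B and LGR5, and 3 lower (3.0%), namely FZD7, SFRP1 and TMEM88. From D14 to D21, 24 could be compared, with RSPO3, WNT2, SFRP1 and DKK3 higher (5.17%) and 6 lower (12.5%), namely FZD3, LGR4, LRP5, WNT5B, LGR5 and TMEM88. The LGR5 ratio rests on 36 UMIs at D14 and 2 at D21. In cluster 16, which held 118 of the 154 dividing-like cells of D21, 3 of the 8 fibroblast markers stood 2-fold above the other cells, against 0 in cluster 6, the main one of D14. RSPO3 and SFRP1 were also among the members higher in fibroblast-like cells of D21, and the part of those markers' cells in the values was not tested. SFRP1 in dividing-like cells was at 319 CPM (306 to 332) on D8, 133 CPM (125 to 141) on D14 and 668 CPM (638 to 699.7) on D21. Endothelial-like cells were few, and 3 to 5 members had enough UMIs. From D8 to D14, 0 were higher (3.22%) and FZD3, SFRP1 and TMEM88 were lower (6.56%), and from D14 to D21 SFRP1 and TMEM88 were higher (12.9%) and 0 lower (9.92%). TMEM88 was thus lower in D14 than in D8 cells of each named group in which it could be compared.

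A further list held 41 other genes of the pathway. Between D8 and D14, 39 could be compared over all kept cells, and 1 was higher (NOTUM) and 3 were lower (MYC, SP5 and KREMEN2), beside 13.1% and 4.3% of all genes. From D14 to D21, 4 were higher (NKD1, NKD2, TNFRSF19 and MYC) and 5 lower (WLS, FRZB, KREMEN2, VANGL2 and SP5) of 39, beside 8.18% and 19.1% of all genes. FRZB, the antagonist also known as SFRP3 and so not matched by the pattern, went from 55.6 CPM to 92.7 CPM between D8 and D14 and was 5.3-fold (4.85 to 5.81) lower at D21. WLS, the carrier that WNT ligands need for secretion, went from 124 CPM to 43.8 CPM between D14 and D21, 2.84-fold (2.68 to 3.01) lower, and VANGL2, of the planar polarity branch, from 12.8 CPM to 3.85 CPM. Over all kept cells MYC went from 13.7 CPM to 4.02 CPM and then from 4.02 CPM to 12.9 CPM, whereas in CM-like cells it was higher at D14 than at D8, at 0.893 CPM to 2.34 CPM from 7 and 35 UMIs.

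In CM-like cells, 4 of 37 were higher (KREMEN1, ZNRF3, CCND1 and MYC) and 1 lower (NKD2) from D8 to D14, beside 14.0% and 3.1% of all genes, and 6 of 36 were higher and 6 lower from D14 to D21, beside 5.36% and 21.1%. The pathway genes with the largest ratios from D14 to D21 were APCDD1, a membrane inhibitor of WNT signalling (1 CPM to 13 CPM), TNFRSF19 (12 CPM to 75.7 CPM) and NKD1, a feedback inhibitor (2.07 CPM to 11.6 CPM). On the lower side they were FRZB (132 CPM to 15.5 CPM), VANGL2 (12.1 CPM to 3.15 CPM) and TCF7L1 (24.7 CPM to 7.67 CPM). Of the 10 transduction genes, such as CTNNB1, GSK3B and APC, none passed 2-fold between successive libraries, over all kept cells or in CM-like cells. From D8 to D14 in CM-like cells, CCND1 (8.93 CPM to 23.7 CPM), KREMEN1 (5.61 CPM to 13.5 CPM) and ZNRF3 (14.2 CPM to 33.4 CPM), which removes frizzled receptors from the surface, were higher.

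The 28 members without values of their own under the naming rule reached at most 9.48 CPM over all kept cells of a day (SFRP5 at D21). FZD8, among these, was at 3.44 CPM (2.27 to 5.01) on D8, 16.6 CPM (14.6 to 18.8) on D14 and 10.3 CPM (8.07 to 12.9) on D21 in CM-like cells. WNT1, WNT8A and WNT8B had 1 UMI each, at D8, and WNT9B had 4, at D14. LGR6, an R-spondin receptor of skin and other epithelia, had 1 UMI at D8, 4 at D14 and 0 at D21. RSPO4 and SFRP5 were counted on each day, with 162, 336 and 276 UMIs for RSPO4 and 243, 344 and 293 for SFRP5.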

How the data were processed

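Single-cell libraries from CCOs at D8, D14 and D21 were analysed, 1 per day and assigned by the label of the day. Per the labels and the study's methods, the authors dissociated the organoids with TrypLE, made libraries with the Chromium 3' version 2 kit, and used Cell Ranger with hg19 and Seurat 3.2.1. The deposited table held raw UMI counts per gene and barcode, with the day as a suffix of each barcode.

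Genes with a UMI in at least 10 barcodes (20394) were used for clustering, and cells with 2000 to 7500 genes and under 10% mitochondrial UMIs were kept. The cell counts the study gives for D14 and D21 equal those kept here, and its count for D8 does not. Kept cells had 4007 to 95021 UMIs. Clustering used Seurat 5.3.0 in R 4.3.3 (log-normalization to 10000 UMIs, 2000 variable genes less 55 that are members, pathway genes or genes the study names, 20 principal components, resolution 0.8, no integration across days). A cluster was named from lists of 8 markers when at least 3 stood 2-fold above the other cells of its main day and led the next list by 2. These thresholds were set after the clusters were seen, and the rule was changed once then, so that the list of epithelial genes was counted but named no cluster. Under the first form of the rule clusters 9, 11 and 12 were unnamed and cluster 14 was named epithelial. Names may therefore differ from the study's. Scrublet in scanpy 1.11.5 called 0.301%, 0.0279% and 0.308% of the cells doublets, too few for the caller to have worked, and none were removed.

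UMIs were summed by day and cell group and given as CPM (Python 3.11.15, numpy 2.4.6, pandas 2.3.3, scipy 1.17.1) with exact Poisson 95% intervals, and ratios with exact binomial intervals of the split of the counts. Shares of cells with a UMI were taken after thinning each cell to 4000 UMIs, which left out 0 cells, with exact Clopper-Pearson intervals. Where 0 UMIs were counted, the limit is 3 counts. With 1 library per day there is no replicate check and no p-value, and all intervals and limits cover counting error only. Features were called past 2-fold with at least 30 UMIs over both sides. On Poisson counts simulated from the D14 profile at the depths of D14 and D21, with 200 of 16445 genes changed, the simulated ratio lay inside 95.6% of the intervals, and 0.425% of unchanged genes were called. The intervals are exact for such counts, so this checks the calculation only. Differences between libraries or in cell composition were not simulated, and 0.425% is not a rate of false calls between days.

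Members given with values had at least 10 CPM over a day's kept cells, or 20 CPM and 20 UMIs in a group of at least 30 cells. This gave 21 of the 49, and the other 28 were given by range and count. Of the pathway list, the 3 largest ratios each way among genes at 10 CPM or more were given. The members and lists were chosen with earlier results of these data known. Promoters were read from RefSeq tables of GRCh38.p14. Alternatives were TMM (edgeR 4.0.16) and median-of-ratios scaling, other count minimums, cell filters, clustering settings and a gate on 5 CM genes.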

Additional observations from a re-analysis of the deposited data

Results flagged for a closer look

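Several members differed in opposite directions between days in different cell groups, each by 2-fold or more with at least 30 UMIs over both sides. The difference between groups was not tested, since each day is 1 library. From D8 to D14, the log2 ratio of DKK1 was -3.41 in CM-like and 1.21 in ectoderm-like cells, and that of SFRP2 was 3.10 in CM-like, -2.94 in endoderm-like and -1.91 in ectoderm-like cells. The DKK1 value in ectoderm-like cells goes against the share of thinned cells, and the SFRP2 value in CM-like cells rests on 0.361% of the thinned D14 cells, no more than the share in endoderm-like cells (0.474%). The SFRP2 value in endoderm-like cells rests on 42 UMIs at D8 and 4 at D14.

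From D14 to D21, TMEM88 had a log2 ratio of -2.49 in CM-like, -1.63 in endoderm-like and -2.43 in dividing-like cells, against 2.09 in endothelial-like cells. RSPO3 had -3.22 in CM-like and -2.70 in endoderm-like cells, against 1.21 in dividing-like cells. SFRP1 had -2.54 in endoderm-like cells, against 2.47 in endothelial-like and 2.33 in dividing-like cells. DKK3 had 1.64 in CM-like and 1.62 in dividing-like cells, against -1.23 in endoderm-like cells. FZD1 had 3.02 in CM-like and -2.53 in endoderm-like cells, and LGR5 had 1.09 in endoderm-like and -2.60 in dividing-like cells. Some of these values rest on few UMIs, with 36 at D14 and 2 at D21 for LGR5 in dividing-like cells. FZD1 in endoderm-like cells had 41 and 11 UMIs, and SFRP1 in endothelial-like cells 11 and 54. Counting intervals reached below 2-fold for TMEM88 and DKK3 in endoderm-like cells, RSPO3 in dividing-like cells and LGR5 in both groups. CM-like, endoderm-like and dividing-like cells of D14 and D21 lay mostly in different clusters, so a ratio between days is also one between clusters. For endoderm-like cells these are clusters 12 (D8), 14 (D14) and 9 (D21).

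The barcodes left out by the cell filter also held members. Their 49 members summed to 737 CPM in 906 barcodes at D8, 658 CPM in 1030 at D14 and 552 CPM in 7203 at D21, against 867, 689 and 896 CPM in the kept cells. At D21 the sum hides differences in both directions. SFRP1 was at 112 CPM in the barcodes left out against 536 CPM in the kept cells, and RSPO3 at 8.18 against 21.1 CPM. DKK3 was at 118 against 49.2 CPM, WNT5A at 29.2 against 18.6 CPM, WNT5B at 21.5 against 8.29 CPM and WNT2 at 15 against 5.95 CPM. Levels over all kept cells of D21 thus depend on the filter.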

How the results depend on the processing

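No paired analysis was possible because each day was 1 library and no replicate numbers link the days. For the same reason no replicate could be left out. Single ratios were followed for the 21 members given with values, not for the other members past 2-fold. Their 20 ratios past 2-fold over all kept cells kept their direction under 7 alternatives, and 5 (DKK3 in both steps, FZD1, WNT5B and FZD2 from D14 to D21) were under 2-fold in 1. Their 19 ratios in CM-like cells kept their direction in the alternatives that gave a value, which for SFRP2 was 3 and for the others 12 or 13. FZD1 from D8 to D14 stayed past 2-fold in 3 of 12, and from D14 to D21 FZD3 and LRP5 in 7 of 13, FZD6 in 8 of 13, FZD2 in 11 of 13 and FZD4 in 11 of 12. Sizes moved more than directions. In CM-like cells from D14 to D21 the log2 ratio of FZD7 lay between -3.18 and -1.08 (-2.98 as reported), TMEM88 between -3.88 and -1.81 (-2.49), FZD2 between -2.52 and -0.86 (-1.27), FZD4 between -1.86 and -0.89 (-1.84) and DKK3 between 1.00 and 2.28 (1.64), and from D8 to D14 DKK1 lay between -4.55 and -2.34 (-3.41) and WNT2 between 3.30 and 4.68 (4.01). Over all kept cells WNT5B from D14 to D21 lay between -3.39 and -0.90 (-1.71).

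In this paragraph the share of all genes past 2-fold under the same setting stands in brackets. With no filter on low counts, 9 members (14.0%) rather than 5 (4.3%) were lower from D8 to D14 and 23 (29.6%) rather than 14 (19.1%) from D14 to D21 over all kept cells. In CM-like cells 19 (24.6%) rather than 9 (14.0%) were then higher and 6 (10.2%) rather than 3 (3.1%) lower from D8 to D14, and 5 (11.5%) rather than 3 (5.36%) higher and 24 (34.0%) rather than 12 (21.1%) lower from D14 to D21. With at least 100 UMIs, which tests fewer members, 3 (2.73%) were lower from D8 to D14, 3 (6.94%) were higher from D14 to D21, and 8 (9.72%) rather than 13 (11.3%) were above the other cells in fibroblast-like cells of D21. With cells of over 1000 genes and no upper limit, or without the highest doublet scores, 5 (5.19% and 5.12%) were lower in CM-like cells from D8 to D14. A mitochondrial limit of 5% gave 5 (9.76%) higher in CM-like cells from D14 to D21, 2 (3.2%) in fibroblast-like and 2 (10.6%) rather than 4 (10.7%) in endoderm-like cells of D21, and a gate on CM genes, 541 of whose 1165 D21 cells were CM-like, gave 6 (8.0%) higher from D14 to D21. The cause was not tested. That mitochondrial limit left 37 CM-like cells at D21, and a limit of 20% left 1641.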
